A study of Mus musculus with 6 samples.

Results

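Bile acid synthesis and transport was described here through 10 genes, Cyp7a1, Cyp7b1, Cyp8b1, Cyp27a1, Hsd3b7, Baat, Slc10a1, Slco1b2, Abcb11 and Nr0b2, listed by name for their roles with earlier results of these data known. Each was read by 1 of the 25150 probe sets of the array, and 8 of the 10 passed the filter on low values and were tested. Expression was measured in the adrenal glands of adult female C57Bl/6J mice whose mothers had received CGP 39551 (CGP), which competes with glutamate at its N-methyl-D-aspartate (NMDA) receptors, and in control females of the same strain, chow and age. The mothers were dosed orally with 5 mg/kg from pregnancy up to the end of weaning, and the offspring were killed at 21 weeks. Each group had 3 arrays and RNA pooled from 18 mice. Nothing in the sources tells if the arrays of a group shared a pool, so p-values measure only the spread between arrays, which may be technical. The question was whether developmental NMDA receptor antagonism left a difference in adult expression of these genes.

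Bile acids are made from cholesterol, mainly in hepatocytes, the parenchymal cells of the liver. In the classical pathway Cyp7a1 hydroxylates the sterol ring first, and Hsd3b7 and Cyp8b1 modify the ring further. In the alternative pathway Cyp27a1 oxidises the side chain and Cyp7b1 hydroxylates the resulting oxysterol. Baat then joins the acid to taurine or glycine. Slc10a1 and Slco1b2 take bile acids up from blood, Abcb11 pumps them into bile, and the nuclear receptor Nr0b2 (SHP) represses Cyp7a1 and Cyp8b1 in liver when bile acids accumulate. The adrenal gland is not known as a site of bile acid production, although it uses the same precursor, cholesterol, for steroid hormones.

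Promoter sequences were taken from RefSeq (GRCm38.p6) for the 250 bases before the transcription start, and 7 of the 10 genes were found there, with 8 promoters. Cyp7a1, Cyp7b1 and Baat were not matched. The promoters of a pair of genes that fell, Cyp8b1 and Slc10a1, are shown with those of a pair that did not pass the test, Hsd3b7 and Nr0b2, each 5′ to 3′ and ending at the base before the start. Capitals mark a match to a motif searched on both strands. The Cyp8b1 promoter lies at chr9:121916306-121916555 (minus strand), that of Slc10a1 at chr12:80968706-80968955 (minus strand), that of Hsd3b7 at chr7:127800359-127800608 (plus strand) and that of Nr0b2 at chr4:133553126-133553375 (plus strand).
Cyp8b1: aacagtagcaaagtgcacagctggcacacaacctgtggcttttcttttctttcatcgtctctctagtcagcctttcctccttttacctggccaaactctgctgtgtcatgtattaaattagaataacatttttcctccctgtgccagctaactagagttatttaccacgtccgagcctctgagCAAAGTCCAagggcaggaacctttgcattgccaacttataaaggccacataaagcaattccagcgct
Slc10a1: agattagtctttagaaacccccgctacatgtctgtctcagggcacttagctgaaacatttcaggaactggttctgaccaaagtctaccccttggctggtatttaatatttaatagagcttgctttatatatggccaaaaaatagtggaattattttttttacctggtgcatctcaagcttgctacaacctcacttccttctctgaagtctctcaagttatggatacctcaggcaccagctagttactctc
Hsd3b7: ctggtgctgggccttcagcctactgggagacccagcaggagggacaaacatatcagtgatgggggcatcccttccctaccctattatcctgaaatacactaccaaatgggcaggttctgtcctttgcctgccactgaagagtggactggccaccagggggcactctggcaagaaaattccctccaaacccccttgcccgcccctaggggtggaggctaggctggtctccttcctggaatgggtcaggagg
Nr0b2: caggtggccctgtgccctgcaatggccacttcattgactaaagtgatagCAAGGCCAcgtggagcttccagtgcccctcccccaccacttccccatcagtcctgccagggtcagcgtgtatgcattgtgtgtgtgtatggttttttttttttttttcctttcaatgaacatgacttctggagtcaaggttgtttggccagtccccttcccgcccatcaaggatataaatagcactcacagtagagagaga

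Of the motifs, that of the hepatocyte nuclear receptor HNF4 (CAAAGTCCA or CAAAGGTCA) was present at -67 to -59 in Cyp8b1 and in 0.807% of all 32851 promoters of this length. The Nr5a family motif (CAAGGTCA or CAAGGCCA), read by LRH-1 in liver and by SF-1 in the adrenal cortex, was present at -201 to -194 in Nr0b2 and in 3.28% of all promoters. The HNF1 hexamer (GTTAAT) was present in Slco1b2 at -66 to -61 and in 6.43% of all promoters. The inverted repeat of the bile acid receptor FXR (GGTCA and TGACC with any 1 base between them) was found in 0 of the 8 promoters and in 0.0335% of all. The promoters of Cyp27a1, Abcb11, Hsd3b7 and Slc10a1, including its other start, held none of these letters. No match overlapped another, and a match here is a match of letters only.

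Transcripts of this pathway were lower in CGP adrenals at synthesis, conjugation and uptake, and not at every gene. Of the 8 genes tested, 6 fell, 0 rose and 2 did not pass (limma with Benjamini-Hochberg adjustment over all probe sets tested, adjusted p under 0.05). Over all 16034 probe sets tested, 1.59% were lower, 1.94% higher and 3.53% changed in either direction. The count behind the last share (566) moved by more than 1.5 times without any 1 of the 6 arrays, with a lowest value of 236 without CGP 2 and a highest of 1099 without control 1. Its balance also turned, with 311 higher and 255 lower on all arrays, 612 and 487 without control 1, and more lower than higher without any other array (79 higher and 157 lower without CGP 2). The count of 6 genes was 4 without any 1 of the CGP arrays, 5 without control 2 or control 3 and 6 without control 1. The groups did not overlap for the same 6 genes, where 12.6% of all probe sets had every CGP array below every control array. At a minimum of 1.5-fold, 3 of the 8 were lower (Cyp7a1, Cyp8b1 and Slc10a1), against 0.748% of all. The median log2 fold change (CGP minus control) of the 8 was -0.45, and that of all probe sets tested was -0.01. An array background was set from 127 probe sets of olfactory and other sensory receptors that the adrenal should not express. Their 75th percentile lay at log2 values of 6.42 to 6.55 on the CGP arrays and 6.49 to 6.65 on the control arrays. Where the dimmer group lay under it, a fold is given only as a bound. In whole tissue, fewer cells of a type and less RNA per cell cannot be told apart.

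**Figure D1:**
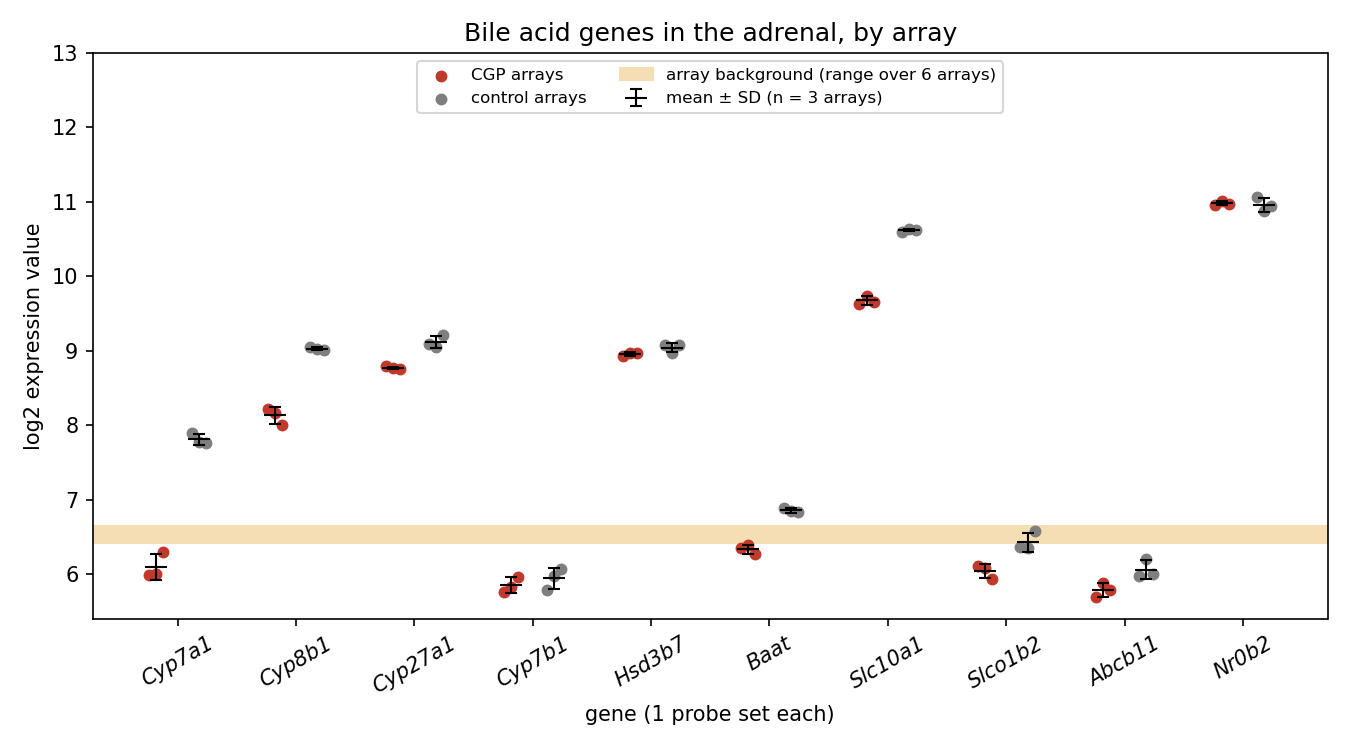
Deposited log2 values (vertical axis) of the 10 genes (horizontal axis, by role) on each of the 3 CGP arrays (red, left) and 3 control arrays (grey, right), with group means and SDs in black and the range of the array background as a band. Cyp7a1 lies under the band on the CGP arrays (6.10) and above it on the control arrays (7.81), Cyp8b1 and Slc10a1 are lower in CGP and far above the band in both groups, and the points of Hsd3b7 and Nr0b2 overlap.

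Cyp7a1, the rate-limiting enzyme of the classical pathway, had log2 values of 5.99, 6.01 and 6.29 on the CGP arrays, against 7.90, 7.78 and 7.76 on the control arrays. All 3 CGP values lay under background and all 3 control values above it, with a gap of 1.47 between the groups. The log2 fold change was -1.72 (SE 0.09, limma adjusted p = 6.9e-05). Since the CGP arrays were at background, the fall was at least 2.53-fold.

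Cyp8b1, the sterol hydroxylase that sets the share of cholic acid in the bile acid pool, gave 8.22, 8.17 and 8.01 on the CGP arrays and 9.05, 9.03 and 9.02 on the control arrays. Every array lay well above background and the groups were separated by 0.80. Cyp8b1 fell 1.86-fold (log2 fold change -0.90, SE 0.06, limma adjusted p = 0.000172). Its 3 control arrays spanned less (SD 0.02) than its 3 CGP arrays (SD 0.11).

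Cyp27a1, the mitochondrial enzyme that opens the alternative pathway and is also expressed outside the liver, differed less. Its log2 values were 8.79, 8.77 and 8.76 on the CGP arrays, against 9.09, 9.05 and 9.22 on the control arrays. The CGP arrays lay within a narrow range below all controls. The fall was 1.27-fold (log2 fold change -0.35, SE 0.05, limma adjusted p = 0.0149), and the call was lost without CGP array 1, 2 or 3 (adjusted p = 0.0539, 0.0809 and 0.0791) and with a required minimum of 1.2-fold.

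Cyp7b1, the oxysterol hydroxylase of the alternative pathway, did not pass the filter. It read 5.76, 5.83 and 5.97 on the CGP arrays and 5.78, 5.98 and 6.07 on the control arrays, all under background, so that these arrays cannot show a change. With no filter, the log2 fold change was -0.09 (95% confidence interval -0.29 to 0.11, limma adjusted p = 0.600). Hsd3b7, the dehydrogenase shared by both pathways, was well measured and did not pass the test. Its log2 values were 8.92, 8.97 and 8.98 on the CGP arrays, against 9.08, 8.97 and 9.08 on the control arrays, where control 2 lay among the CGP values. The difference was -0.09 (95% confidence interval -0.21 to 0.03, limma adjusted p = 0.374), an interval that leaves out a fall as large as that of Cyp8b1.

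Baat, which conjugates bile acids in peroxisomes, had log2 values of 6.35, 6.39 and 6.27 on the CGP arrays and 6.89, 6.84 and 6.83 on the control arrays. As with Cyp7a1, the CGP arrays were all under background and the control arrays all above it. The log2 fold change was -0.52 (SE 0.05, limma adjusted p = 0.00101), at least 1.30-fold lower with the CGP arrays set to background.

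Slc10a1, the sodium-dependent carrier NTCP that takes conjugated bile acids up from portal blood, fell as well. It read 9.63, 9.74 and 9.65 on the CGP arrays, against 10.60, 10.63 and 10.62 on the control arrays. The log2 fold change was -0.94 (SE 0.05, limma adjusted p = 6.9e-05), a fall of 1.92-fold, and the gap between the groups was 0.86. In no fit that left out 1 array did Cyp7a1, Cyp8b1, Baat or Slc10a1 lose its call, and their largest adjusted p there was 0.00801.

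Slco1b2, a sodium-independent carrier of the hepatocyte's blood-facing membrane, gave 6.11, 6.09 and 5.94 on the CGP arrays and 6.36, 6.35 and 6.58 on the control arrays. It passed the test (limma adjusted p = 0.0378), but all 6 values lay under the background of their arrays, so no fold is given. Its call was lost in each fit that left out 1 array except the fit without control 1 (adjusted p up to 0.148). Abcb11, the canalicular export pump BSEP, was under background on all 6 arrays as well and did not pass the filter. Its log2 values were 5.69, 5.89 and 5.79 on the CGP arrays, against 5.98, 6.20 and 6.00 on the control arrays. With no filter its adjusted p was 0.120 (limma), and no fold is given.

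Nr0b2, the repressor, was far above background on every array and did not pass the test. It read 10.96, 11.02 and 10.97 on the CGP arrays and 11.06, 10.87 and 10.94 on the control arrays, with the CGP values inside the control range. The log2 fold change was 0.02 (95% confidence interval -0.11 to 0.16, limma adjusted p = 0.850), and it was -0.02 without control 2, the lowest array. Cyp7a1 and Cyp8b1, which Nr0b2 represses in liver, were among the genes that fell, and a link between them and Nr0b2 was not tested.

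The enzymes that activate bile acids for conjugation, Slc27a5 and Slc27a2, were also lower in CGP adrenals. Of 15 other listed genes of bile acid synthesis, 13 were tested, of which 5 fell, none rose and 8 did not pass, with a median log2 fold change of -0.14. Slc27a5, the bile acyl-CoA synthetase that acts just before Baat, read 7.38, 7.38 and 7.47 on the CGP arrays and 8.23, 8.32 and 8.30 on the control arrays, 1.84-fold lower (limma adjusted p = 0.000106). Slc27a2, a related acyl-CoA synthetase, was 1.55-fold lower (9.26 ± 0.05 in CGP and 9.89 ± 0.08 in controls, mean ± SD, n = 3 arrays each, limma adjusted p = 0.000747). As for Slc10a1, the CGP and control arrays of both genes did not overlap. Cyp2c70, which makes the muricholic acids of the mouse, was under background on all CGP arrays and on control 3, and was at least 1.12-fold lower (limma adjusted p = 0.00749). Acox2, a peroxisomal oxidase of the side chain, was 1.5-fold lower (limma adjusted p = 0.00787), and Ch25h, which makes an oxysterol, 1.29-fold lower (limma adjusted p = 0.0375). With a required minimum of 1.2-fold, the calls of Cyp2c70 (adjusted p = 0.172), Acox2 (0.213) and Ch25h were lost. Acox2 also lost its call without CGP 3 (adjusted p = 0.0552) and Ch25h without control 3, CGP 1, CGP 2 or CGP 3 (adjusted p up to 0.126). Akr1d1, the steroid ring reductase of bile acid synthesis, did not pass the test (11.44 ± 0.09 in CGP and 11.36 ± 0.08 in controls, limma adjusted p = 0.518).

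Of 17 other listed genes of bile acid transport and biliary export, 12 were tested, of which 4 fell, none rose and 8 did not pass, with a median of -0.21. The difference was negative for 8 of the 12 and positive for the others, none of which passed. Abcc2, a canalicular pump of conjugates, read 6.93, 7.13 and 6.84 on the CGP arrays and 7.54, 7.69 and 7.71 on the control arrays. All 6 values were above background and the fall was 1.60-fold (limma adjusted p = 0.00405), a call lost with a required minimum of 1.2-fold (adjusted p = 0.0658). Abcb4, which moves phosphatidylcholine into bile, was 1.29-fold lower (limma adjusted p = 0.0352). Slco1a4, an organic anion carrier, and Abcg8, a sterol exporter, passed the test with all arrays under background, so no fold is given for either. Slco1a4 read 5.87, 5.76 and 5.88 on the CGP arrays and 6.40, 6.22 and 6.17 on the control arrays. It thus entered the test only through the control arrays, where it was higher (limma adjusted p = 0.0192 with no filter). Abcb4 lost its call without CGP 1, CGP 3, control 2 or control 3 (adjusted p up to 0.116), Slco1a4 without any of the CGP arrays (up to 0.0874) and Abcg8 without any array but control 1 (up to 0.189). Slc10a2, the bile acid carrier of the ileum, had no probe set annotated with this 1 symbol and was not analysed here.

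Of 18 listed genes that regulate bile acid synthesis, 17 were tested, of which 2 rose, 2 fell and 13 did not pass, with a median of -0.06. Hnf4a, a nuclear receptor that activates hepatocyte genes including Cyp7a1 and Cyp8b1, read 7.95, 8.03 and 8.0 on the CGP arrays and 8.48, 8.53 and 8.49 on the control arrays. It fell 1.42-fold (log2 fold change -0.50, SE 0.05, limma adjusted p = 0.000709) and kept this call without any 1 of the 6 arrays. Nr1i3 (CAR), a xenobiotic receptor of liver, was 1.35-fold lower (limma adjusted p = 0.0364). Ppargc1a, a coactivator of oxidative metabolism that brown fat also uses, was 1.31-fold higher (limma adjusted p = 0.0156), and Klb, the co-receptor for endocrine fibroblast growth factors in liver and fat, 1.30-fold higher (limma adjusted p = 0.0306). The call of Nr1i3 was lost without control 3, CGP 1, CGP 2 or CGP 3 (adjusted p up to 0.123), that of Ppargc1a without CGP 1, CGP 2 or control 3 (up to 0.0734) and that of Klb without control 2 or any of the CGP arrays (up to 0.136). Nr1h4 (FXR), the bile acid receptor that induces Nr0b2, had a difference of -0.23 that did not pass (7.78, 7.87 and 7.80 on the CGP arrays, 8.18, 7.83 and 8.12 on the control arrays, limma adjusted p = 0.212). Nr5a2 (LRH-1), which drives Cyp7a1 and Cyp8b1 in liver, did not pass either (6.60 ± 0.14 in CGP and 6.74 ± 0.06 in controls, n = 3 arrays each, limma adjusted p = 0.342).

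**Figure D2:**
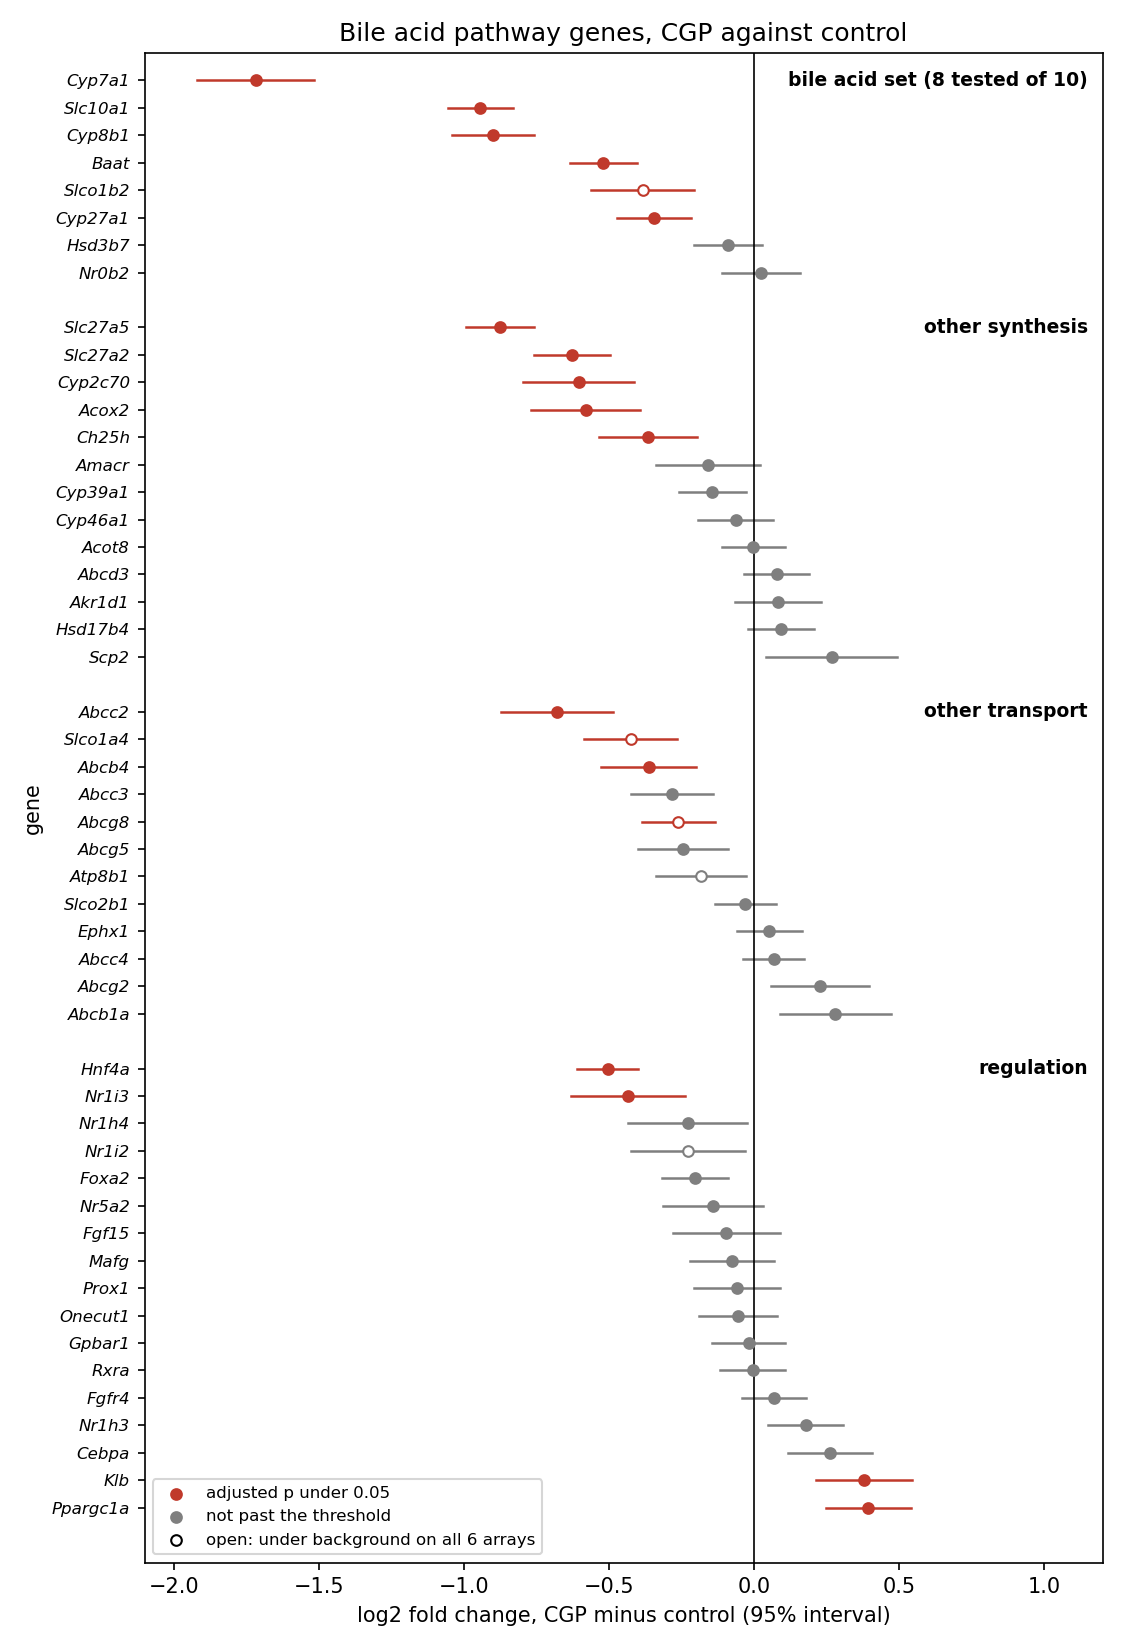
The horizontal axis gives the log2 difference between CGP and control arrays, with its 95% confidence interval, for each tested gene (vertical axis) of the bile acid set and of the lists of other synthesis, other transport and regulation, red for an adjusted p under 0.05, grey for the others and open where all 6 arrays lay under background. Cyp7a1 lies farthest to the left (-1.72 as measured, with its CGP arrays under background), followed by Slc10a1 (-0.94), Cyp8b1 (-0.90) and Slc27a5 (-0.88), while Nr0b2 lies at 0.02.

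Markers of hepatocytes moved with these genes. Of 33 hepatocyte markers tested, 31 were lower and 0 were higher, with a median log2 fold change of -0.92, and their summed linear level was 37428 to 37973 on the CGP arrays and 56930 to 58012 on the control arrays. None lay under background on all 6 arrays. The 2 that did not pass, Cyp2e1 and Hp, had differences in the other direction, of 0.17 and 0.10 (limma adjusted p = 0.0706 and 0.377). Hgd, an enzyme of tyrosine breakdown, fell 2.37-fold and Cps1, of the urea cycle, 2.30-fold. Albumin (Alb) fell by 0.42 (12.98 ± 0.05 in CGP and 13.40 ± 0.02 in controls, n = 3 arrays each, limma adjusted p = 0.00256). The part of hepatocyte RNA in the values of the bile acid genes was not tested.

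Lists of other cells of liver and bile duct, and of other neighbouring organs, were shorter and gave fewer calls. Over all probe sets tested 3.53% were called. At that share a list of 5 to 8 markers can hold 0 calls, so nothing is concluded from a count of 0. Of 12 listed markers of liver cells other than hepatocytes, 8 were tested and 1 was lower. The sinusoidal lectin Clec4g fell by 0.44, and Clec4f and Marco of Kupffer cells were under background on all 6 arrays. The summed level of this list was 1083 to 1125 on the CGP arrays and 1116 to 1235 on the control arrays. Of 10 listed cholangiocyte markers, 5 were tested and 0 were called (sum 492 to 557 in CGP, 504 to 556 in controls). Of 10 listed markers of ileal enterocytes, which recover bile acids from the gut, 5 were tested and 2 were lower. Apoa4 fell by 0.77 and Mttp fell by 0.43, and hepatocytes also express both. Which cells the RNA of these genes came from was not tested. For kidney tubule, 6 of 12 listed markers were tested and 0 were called, and for pancreatic acinar cells 5 of 10 were tested and 0 were called. Under background on all 6 arrays lay 1 cholangiocyte, 1 ileal enterocyte and 1 kidney tubule marker as well. The other markers of these lists had no probe set with 1 symbol or lay below the filter, so the counts cover only part of each list. Limma gave an unadjusted p under 0.05 for 0 of the cholangiocyte, 1 of the kidney tubule and 2 of the acinar markers.

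Adrenal markers were bright in both groups. Star, which carries cholesterol into adrenocortical mitochondria, stood at 13.56 ± 0.02 in CGP and 13.47 ± 0.02 in controls (limma adjusted p = 0.318), and Th, of catecholamine synthesis in the medulla, at 13.05 ± 0.01 in CGP and 13.04 ± 0.04 in controls (limma adjusted p = 0.941, n = 3 arrays each). Of 11 cortical markers 1 was called, Cyp11b2 (0.50 higher), and of 11 medullary markers 0 (limma, 1 with an unadjusted p under 0.05). A list of 11 can hold 0 or 1 call at the share called over all probe sets tested (3.53%). Adipocyte markers moved the other way from the bile acid genes, with 15 of 17 higher, a median of 0.54 and a summed level of 47272 to 47785 on the CGP arrays and 33702 to 34622 on the control arrays. Ucp1, which uncouples respiration in brown fat, was 2.33-fold higher, Aqp7, a glycerol channel, 2.02-fold and Slc2a4, the insulin-responsive glucose transporter, 1.57-fold. The part of fat RNA in the values of the bile acid genes was not tested.

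**Figure D3:**
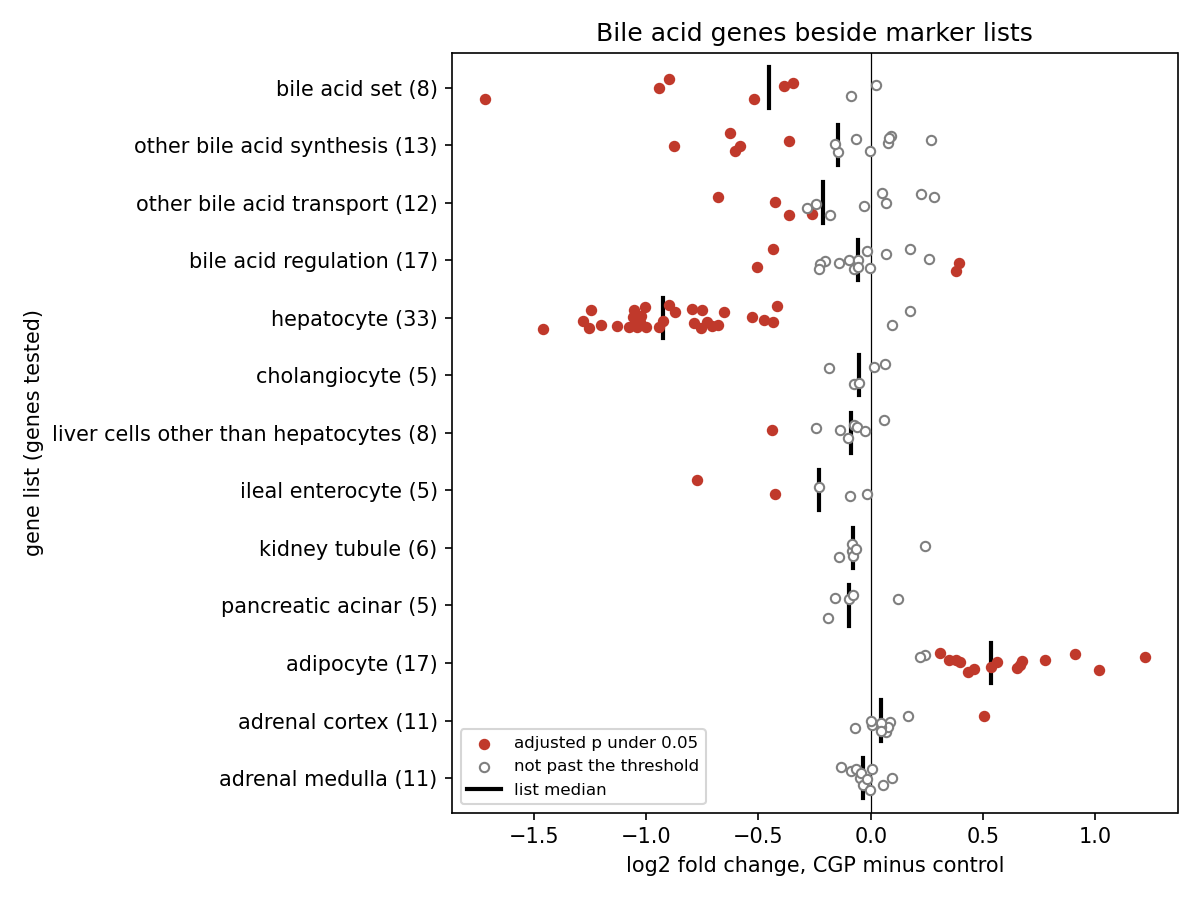
The horizontal axis gives the log2 difference (CGP minus control) for tested genes of the bile acid lists and the cell type marker lists (vertical axis), with filled points for an adjusted p under 0.05 and a bar at each list's median. The bile acid set (median -0.45) lies between the hepatocyte list (-0.92) and 0, and the adipocyte list (0.54) lies on the opposite side.

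The bile acid genes were also set against the hepatocyte list. On each array the median log2 value of this list was subtracted from each gene, a median that was 8.85 to 8.90 on the CGP arrays and 9.80 to 9.95 on the control arrays. Since the median itself shifted by -0.99 (CGP minus control), a gene that did not change lies 0.99 higher in CGP on this scale and a gene that fell as the list did lies at 0. By this construction, 99.6% of all probe sets tested were higher in CGP without overlap and 0.0873% were lower without overlap. Cyp8b1 differed by 0.09 and Slc10a1 by 0.04, near 0, and the groups overlapped for both. An exact two-sided permutation test gave p = 0.4 and 0.7. With 3 arrays against 3 that test could not pass the threshold for any gene, so nothing is concluded from it. Cyp7a1 was lower by 0.73 without overlap (-2.87 to -2.61 on the CGP arrays and -2.07 to -2.02 on the control arrays), and by 0.35 with its CGP arrays set to background. Its exact p of 0.1 is the smallest that 3 arrays against 3 allow and cannot pass the threshold. The hepatocyte markers themselves spread around their median, with log2 fold changes from -1.46 (Cyp2c29) to 0.17 (Cyp2e1). Cyp2c29 fell 2.75-fold, more than the bound of 2.53-fold for Cyp7a1. A distance from the median therefore does not set a gene apart from the list. Hsd3b7 (0.90) and Nr0b2 (1.01) lay near the value of no change, and Cyp27a1 (0.64) between that value and 0. Baat differed by 0.47 as measured and by 0.61 with its CGP arrays set to background. No value is given for Slco1b2, which lay under background on all arrays.

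**Figure D4:**
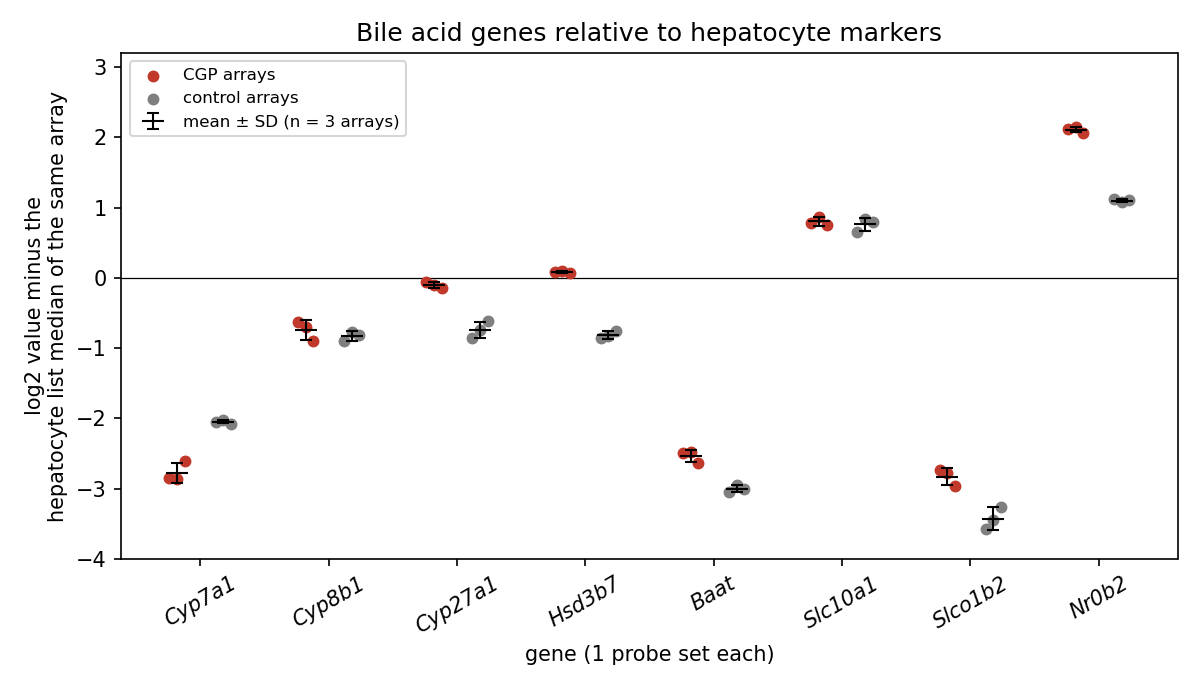
Log2 value minus the median of the hepatocyte list on the same array (vertical axis) for the 8 tested genes (horizontal axis) on the 3 CGP arrays (red, left) and the 3 control arrays (grey, right). A gene that fell as the list did shows no difference between the groups, as Cyp8b1 (0.09) and Slc10a1 (0.04) nearly do, and a gene that did not change lies 0.99 higher in CGP, as Hsd3b7 (0.90) and Nr0b2 (1.01) nearly do. Cyp7a1 lies lower in CGP, and the values of Slco1b2 were under background on all arrays.

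The genes whose values over the 6 arrays were most like the per-array median of the 8 genes (8.39 to 8.50 on the CGP arrays, 9.0 to 9.07 on the control arrays) were found by Pearson's r. These were Serpind1 (heparin cofactor, r = 0.999), Nrbp1 (0.999), Ttr (transthyretin, 0.999), Reep6 (0.998), Bbox1 (the last enzyme of carnitine synthesis, 0.998) and Hal (histidine breakdown, 0.998). The 6 arrays fall into 2 groups, so r is a description and no p is given. Serpind1 fell by 0.93, Ttr by 0.79 and Hal by 1.01, close to Slc10a1 and Cyp8b1 in size, and Reep6 fell less, by 0.69. Bbox1 passed the test (limma adjusted p = 0.00367) with means of 6.08 in CGP and 6.48 in controls. Both means lay below the range of the array background of their group, so no fold is given. Nrbp1 differed by -0.10 and did not pass the test (limma adjusted p = 0.220).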

How the data were processed

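Adrenal RNA, pooled per group, was read on 3 CGP and 3 control Affymetrix whole-transcript arrays, and groups followed the sample titles. The authors deposited log2 values of 25150 probe sets, and the submitters' processing notes name RMA and Partek without versions. The genome build behind the table is not given in the sources used here. RMA quantile normalises arrays, so a value is relative to the rest of its array. Array medians were 7.91 to 7.96.

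Probe sets with 1 gene symbol in the platform annotation (16769, of which 16723 matched a GRCm38.p6 gene table) were tested where 3 or more arrays reached a log2 value of 6 (16034 probe sets). The test was that of limma 3.58.1 (lmFit, eBayes, two-sided, no covariates) in R 4.3.3. The procedure was tested on simulated data. SE is the moderated standard error. The number of arrays limits precision. Plots used matplotlib 3.10.9.

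Members and lists were chosen with earlier results of these data known. All 10 genes were named whatever their values. Of the other pathway lists, up to 6 genes a direction with the smallest adjusted p under 0.05 were named, with Nr1h4, Nr5a2, Hnf4a, Slc27a5, Cyp2c70, Akr1d1, Slc10a2 and Abcc2 in any case. Of each marker list, at most 3 with the smallest adjusted p were named, with Alb, Star and Th in any case. The 6 probe sets most alike were added. Clec4f, Marco, Cyp2e1, Hp and Cyp2c29 were named after their values were seen. Alternatives covered the filter, probe sets tested, normalisation, variance model, array weights, minimum change, replicate block and left-out arrays.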

Additional observations from a re-analysis of the deposited data

How the results depend on the processing

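The count of lower bile acid genes, 6 of 8, stayed 6 with no filter, quantile normalisation, median centring, a variance trend and array weights. It was 3 with a minimum change of 1.2-fold (limma treat), where Baat missed the threshold (adjusted p = 0.0567) and Cyp27a1 and Slco1b2 were lost. It was 5 of 8 when adjusted over all probe sets that pass the filter, with Slco1b2 lost, and 4 of 6 with a filter at log2 7, which left out Baat and Slco1b2. Cyp7a1 passed the filter at log2 7 only through the control arrays, where it was higher. Leaving out each array gave 4 to 6. Nr0b2 reversed to -0.018 without control replicate 2 and lay between that and 0.077 over the fits that left out 1 array. No other call among the 8 genes changed under these alternatives.

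Over all probe sets the count of 566 became 1261 with a variance trend and robust prior, 1665 with array weights, 126 with the minimum of 1.2-fold (25 higher, 101 lower), 382 of all probe sets that pass the filter (164 higher, 218 lower) and 236 to 1099 without 1 array. Same-numbered arrays did not deviate in the same direction (r of their deviations over probe sets -0.36, -0.17 and -0.12). Differently numbered arrays gave r of -0.16 to 0.28. Deviations from a mean of 3 arrays offset one another, so these values cannot decide whether the numbers pair the arrays. With the array number as a replicate block, 224 probe sets (68 higher, 156 lower) and 4 of the 8 genes were called, Cyp27a1 (adjusted p = 0.0803) and Slco1b2 (adjusted p = 0.142) being lost. Of the 13 other pathway genes called, 10 lost the call with the minimum of 1.2-fold (all but Slc27a5, Slc27a2 and Hnf4a), 8 with the replicate block (the same except Cyp2c70 and Abcc2), 6 over all probe sets that pass the filter and 1, Abcg8, with a variance trend, and 3 were not tested at log2 7. For genes near background the arrays set only a bound.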
